A study of Mus musculus with 12 samples.

Results

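Hepatic stellate cell and extracellular matrix genes were examined in whole mouse liver RNA as a set of 39 genes, taken by gene symbol from the 35275 genes of the deposited count table. The set, whose genes are called members here, holds collagens, laminins, matrix glycoproteins and proteoglycans, contractile and filament proteins, stellate cell markers, TGF-beta ligands, matrix proteases with their inhibitors, and lysyl oxidases. It was chosen by name and not by how the genes behaved between the diets, although earlier results of these data were known when it was drawn up. The livers came from male C57Bl/6J mice aged 13 weeks kept for 1 week on either chow or food that contained 0.5% norUDCA. NorUDCA, norursodeoxycholic acid, is a bile acid derived from ursodeoxycholic acid by shortening of its side chain. The sample titles of both groups carry a code of WT, the usual short form of wild type, and a number. No other treatment, genotype or injury is named for either group, so both diets share the same strain, sex and age. There were 6 libraries per diet, named chow 2, 3, 7, 8, 16 and 17 and norUDCA 9, 10, 11, 12, 13 and 20 after the numbers in the sample titles. Whether each library came from a separate animal is not stated, so p-values measure the spread between libraries, which may be technical.

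Stellate cells lie between the sinusoidal endothelium and the hepatocytes, store retinoids as retinyl esters, and are a main source of interstitial collagen when they turn into contractile myofibroblasts in the injured liver. The matrix they take part in has fibrillar collagens, a sparse basement membrane of type IV collagen and laminins, and glycoproteins and small proteoglycans that bind both. TGF-beta ligands drive collagen transcription, PDGF acts through its beta receptor on stellate cell growth, lysyl oxidases cross-link collagen, and matrix metalloproteinases and their tissue inhibitors set its breakdown. Several matrix proteins, fibronectin and collagen XVIII among them, are also made by hepatocytes. In RNA from whole liver, fewer cells of a type and less RNA per cell cannot be told apart.

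The count table gave total counts of 12209706 to 13715026 in the chow libraries and 14065837 to 15342922 in the norUDCA libraries. Both the totals and the TMM factors, the scaling factors that hold most genes at a constant ratio between libraries, were higher in every norUDCA library than in any chow library (n = 6 each, two-sided exact permutation p = 0.00216 for each, adjusted p = 0.00216 over the 2 measures), the lowest value possible with 924 regroupings. The factors were 0.916 to 0.974 in chow and 1.02 to 1.07 under norUDCA. Hepatocyte markers summed to 60133 to 79933 CPM (counts of a gene per 1000000 counts of the library, after scaling by these factors) in chow and 62891 to 76223 under norUDCA. Most of each sum was Alb, at 35743 to 54396 CPM in chow and 43676 to 56164 CPM under norUDCA. The sums therefore say little about the other hepatocyte markers. Chow 17 stood apart for these genes and was the highest chow library for 29 of the 39 members and the lowest for 0, so results that rest on it are given with and without it.

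Every member had counts in all 12 libraries. Levels between genes were compared as RPKM, CPM per kilobase of gene length, with the gene lengths of the deposited table. In both diets 30 members reached a mean of 1 RPKM and 9 stayed under it. Fibronectin, Fn1, was the most abundant, at 243 ± 47.1 RPKM in chow and 163 ± 26.5 RPKM under norUDCA (SD, n = 6). Col18a1, which encodes the basement membrane collagen from which endostatin is cut, followed at 191 ± 7.15 RPKM and 181 ± 10.3 RPKM (SD, n = 6). The proteoglycan decorin, Dcn, had 32.0 RPKM and 41.7 RPKM, and the secreted glycoprotein Ecm1 had 28.8 RPKM and 50.3 RPKM, in chow and norUDCA. Bgn, Sparc and Tagln completed the 7 members with a mean of at least 10 RPKM in both diets. The fibrillar collagens were far lower, with chow means of 3.49 RPKM for Col3a1, 1.90 RPKM for Col1a2, 1.61 RPKM for Col1a1 and 0.746 RPKM for Col5a1. Besides Col5a1, the members under 1 RPKM in both diets were Col6a2, Pdgfrb, Tgfb2, Mmp2, Timp1, Lox, Loxl1 and Loxl2. Lox was the lowest, at 0.139 RPKM in chow and 0.177 RPKM under norUDCA.

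**Figure D1:**
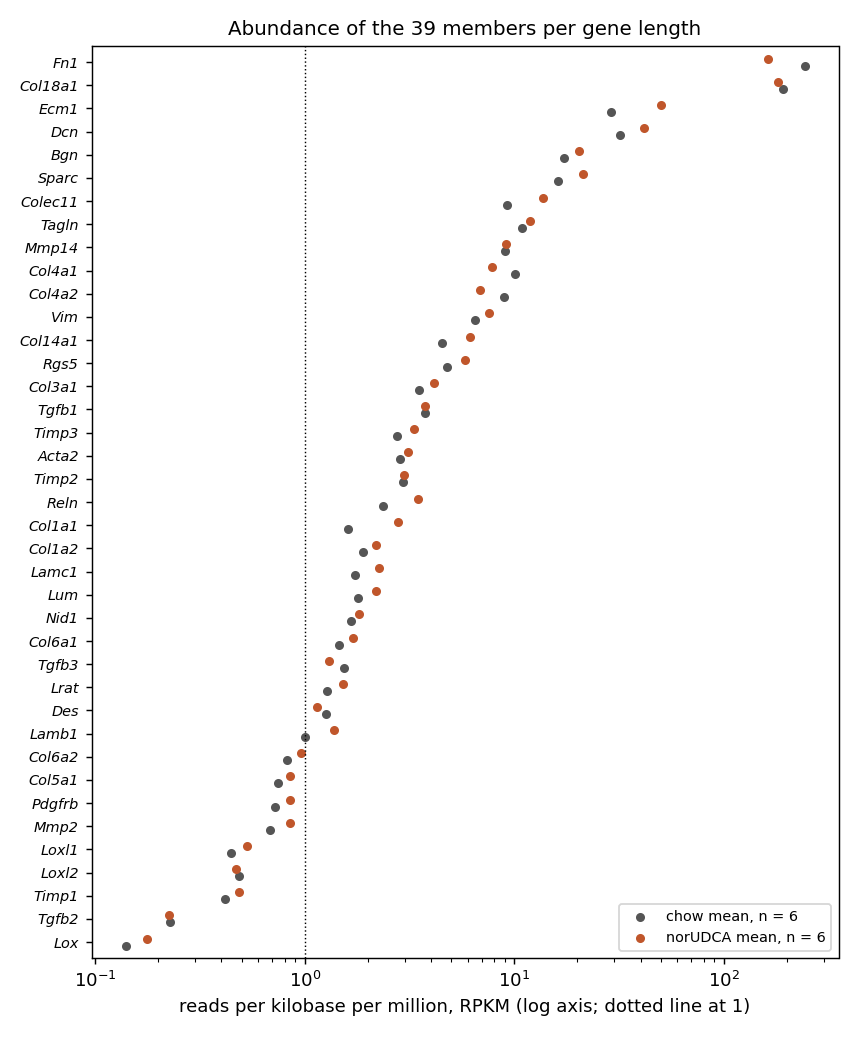
Mean abundance of the 39 members in RPKM on a log axis, with 1 grey point for chow and 1 orange point for norUDCA (n = 6 libraries each) and a dotted line at 1 RPKM. Fn1 and Col18a1 lie far to the right of the others, and 9 genes lie left of the line in both diets.

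The comparison of the diets asked which members differed in mRNA level after norUDCA. Each gene was tested by edgeR's quasi-likelihood test across all 12378 genes that passed a filter on low counts, and a call required a p under 0.05 after Benjamini-Hochberg adjustment. Of the 39 members 37 were tested and 6 were called, 5 higher and 1 lower under norUDCA. The called share was 16.2% of the tested members beside 15.3% of all tested genes, which is near the background. By direction, 13.5% of the tested members were called higher beside 6.73% of all tested genes, and 2.70% were called lower beside 8.62%. The norUDCA libraries lay wholly above the chow libraries for 3 members (8.11%; all tested genes, 3.59%) and wholly below for 0 (all tested genes, 4.07%). The median log2 fold change of the tested members, norUDCA over chow, was 0.22, with 29 above 0 and 8 below, while the median over all tested genes was -0.0014. At an unadjusted p under 0.05 there were 14 members, 8 of which were not called after adjustment. The share of all tested genes at that level is not given here, so this count has no background to be read against.

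**Figure D2:**
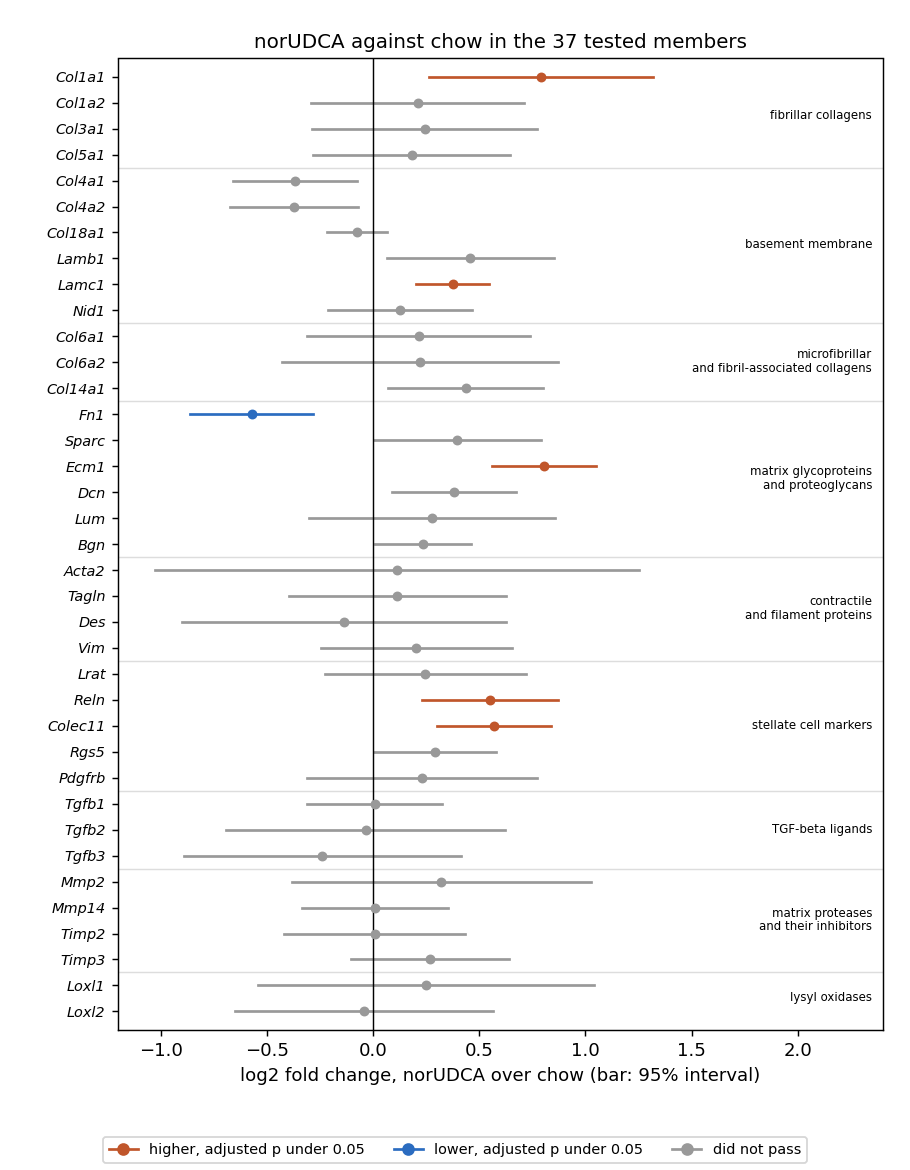
Log2 fold change of norUDCA over chow for the 37 tested members, grouped by role, with the 95% interval of the fit as a bar (n = 6 libraries per diet). The 5 genes in orange and Fn1 in blue passed the adjusted p threshold, and the intervals of the grey genes reach from within 0.5 to past 1 on the log2 scale.

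Levels of 1 gene between libraries are given below as CPM scaled by the TMM factors, and where 3 values are given they are the lowest, the median and the highest of the 6 libraries. Beside a log2 fold change, ± marks its standard error (SE) from that fit.

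The secreted glycoprotein Ecm1, extracellular matrix protein 1 (ENSMUSG00000028108, chr3:95734147-95739569 in the deposited table), rose most clearly. It had 44.1, 54.0 and 72.7 CPM in chow and 78.6, 95.8 and 112 CPM under norUDCA. Every norUDCA library was above every chow library, and the highest chow value was that of chow 17. The level was 1.75-fold higher (log2 fold change 0.81 ± 0.12, SE; edgeR adjusted p = 0.000372). Without chow 17 the log2 fold change was 0.91.

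Colec11, collectin-11, a soluble pattern recognition lectin of the complement lectin pathway that is made by stellate cells in mouse liver (ENSMUSG00000036655, chr12:28594173-28623290), also had no overlap. It had 9.69, 13.1 and 15.7 CPM in chow and 16.3, 17.8 and 22.7 CPM under norUDCA, where norUDCA 12 and 20 were the high libraries. The rise was 1.48-fold (log2 fold change 0.57 ± 0.12, SE; edgeR adjusted p = 0.00714).

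Reelin, Reln, is a large secreted glycoprotein known from neuronal migration and used as a marker of stellate cells in liver (ENSMUSG00000042453, chr5:21884454-22344702). Its levels were 21.98, 26.6 and 37.6 CPM in chow and 31.8, 38.6 and 54.7 CPM under norUDCA. The groups overlapped through chow 2, which was higher than norUDCA 10 and norUDCA 13. The 1.46-fold rise (log2 fold change 0.55 ± 0.15, SE; edgeR adjusted p = 0.0236) was lost to the threshold when chow 7 (adjusted p = 0.0546) or chow 8 (adjusted p = 0.0532) was left out.

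The laminin gamma 1 chain, Lamc1, part of most laminin trimers of basement membranes (ENSMUSG00000026478, chr1:153218922-153332786), moved little but with a narrow spread. It lay at 12.6, 12.9 and 14.95 CPM in chow and at 15.6, 16.7 and 19.3 CPM under norUDCA. No chow library reached a norUDCA library, and chow 17 was again the highest of its diet. The rise was 1.30-fold (log2 fold change 0.38 ± 0.08, SE; edgeR adjusted p = 0.00647).

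Col1a1 encodes the alpha 1 chain of type I collagen, the main collagen of scar tissue (ENSMUSG00000001506, chr11:94936224-94953042). It had 5.39, 8.03 and 14.5 CPM in chow and 10.9, 15.7 and 24.4 CPM under norUDCA. Chow 3 and chow 17 were higher than norUDCA 12 and norUDCA 20, and the other chow libraries were below all norUDCA libraries. The rise was 1.73-fold (log2 fold change 0.79 ± 0.25, SE; edgeR adjusted p = 0.0439), close to the threshold. It did not pass when any of chow 2, 7, 8 or 16 or norUDCA 9, 10, 11 or 13 was left out, at adjusted p-values of 0.0588 to 0.0948 and log2 fold changes of 0.66 to 0.82.

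Fn1, the adhesive glycoprotein fibronectin that hepatocytes release into plasma (ENSMUSG00000026193, chr1:71585520-71653200), was the member that fell. It had 1583, 1976 and 2739 CPM in chow and 1083, 1391 and 1664 CPM under norUDCA. The groups overlapped only in that chow 3 was below norUDCA 13, and chow 2 was the high library. The level under norUDCA was 0.673 times that of chow (log2 fold change -0.57 ± 0.14, SE; edgeR adjusted p = 0.0112).

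**Figure D3:**
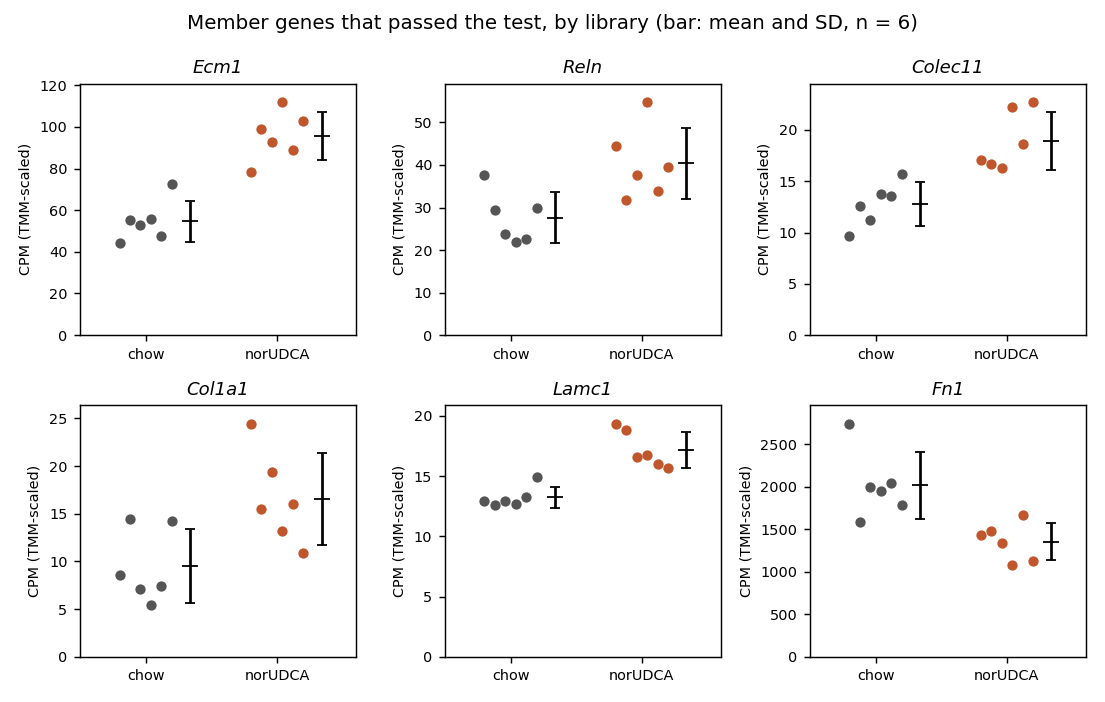
CPM of the 6 called members in each library, chow in grey and norUDCA in orange, with the mean and SD of the 6 libraries as a bar beside each diet and axes that start at 0. For Ecm1, Colec11 and Lamc1 the orange points are all above the grey ones, Reln and Col1a1 overlap, and Fn1 is lower under norUDCA.

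Of the called members 3 had a RefSeq promoter window, and these are shown because the 3 genes rose under norUDCA. The sequences are RefSeq genome sequence of GRCm38.p6, 5′ to 3′ on the gene's strand, which is the minus strand for all of them. They are 250 bases upstream of Ecm1 (chr3:95739570-95739819), 203 bases upstream of Colec11 that lie outside annotated exons (chr12:28623378-28623580), and 250 bases upstream of Reln (chr5:22344706-22344955). The Ecm1 window meets the gene start printed above. The Reln window stops just short of that start, at 22344702. The Colec11 window meets the start in GENCODE M21, at 28623377, while the deposited table puts it at 28623290. Capitals mark the letters of the TATA box, TATAAA, where they occur. They also mark the letters of the GC box, GGGCGG. Both, and CCAAT, were searched on both strands, and no matches overlap.
Ecm1: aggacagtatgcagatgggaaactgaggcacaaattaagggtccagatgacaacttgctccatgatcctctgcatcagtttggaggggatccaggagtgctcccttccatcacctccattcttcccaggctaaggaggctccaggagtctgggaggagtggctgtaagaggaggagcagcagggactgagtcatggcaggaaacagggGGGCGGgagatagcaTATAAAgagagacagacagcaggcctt
Colec11: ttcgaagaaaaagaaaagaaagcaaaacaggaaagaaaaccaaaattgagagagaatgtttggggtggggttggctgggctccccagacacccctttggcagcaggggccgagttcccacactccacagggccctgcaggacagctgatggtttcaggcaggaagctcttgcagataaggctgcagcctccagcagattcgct
Reln: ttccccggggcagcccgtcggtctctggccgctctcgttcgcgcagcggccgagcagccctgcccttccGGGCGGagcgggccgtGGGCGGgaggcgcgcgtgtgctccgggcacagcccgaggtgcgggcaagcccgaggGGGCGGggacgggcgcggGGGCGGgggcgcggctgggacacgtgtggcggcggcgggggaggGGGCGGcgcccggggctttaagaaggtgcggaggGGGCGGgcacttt

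The windows had little in common. The Ecm1 window held TATAAA 27 bases and GGGCGG 42 bases before its end. The Reln window was 80.0% G or C and held GGGCGG 6 times, with no TATAAA. None of the searched letters were in the Colec11 window. That window leaves out the upstream bases nearest the RefSeq start, which lie in annotated exons, so these bases were not searched. Among 32851 RefSeq windows of 250 bases 12.4% held TATAAA, 32.7% GGGCGG and 33.8% CCAAT. For the 203 bases of each window farthest from the gene the shares were 9.27%, 25.2% and 28.9%. A match describes letters in the window and not a site in use.

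The other fibrillar collagens overlapped between the diets and were not called. Col3a1, type III collagen, had 13.0, 16.1 and 38.2 CPM in chow and 16.8, 23.9 and 28.7 CPM under norUDCA (log2 fold change 0.24, edgeR adjusted p = 0.555). Col1a2, the partner chain of Col1a1 in type I collagen, had 6.56, 8.52 and 18.0 CPM against 9.30, 10.7 and 17.02 CPM (log2 fold change 0.21, adjusted p = 0.594). In both genes the highest of all 12 libraries was chow 17. Col5a1, whose chain nucleates collagen fibrils, had a log2 fold change of 0.18 (adjusted p = 0.620). The difference between Col1a1 and the other 3 fibrillar genes in the size of the change was not tested.

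The type IV collagen genes Col4a1 and Col4a2, which encode the network-forming chains of basement membranes, had values below 0. They lie head to head on chromosome 8, at chr8:11198423-11312826 on the minus strand and chr8:11312805-11449287 on the plus strand, and their annotated exons share 22 bases. Col4a1 had 58.6, 65.1 and 84.2 CPM in chow and 38.2, 52.3 and 68.5 CPM under norUDCA (log2 fold change -0.37 ± 0.14, SE; edgeR adjusted p = 0.0855). Col4a2 had 48.8, 57.4 and 67.3 CPM in chow and 34.6, 39.7 and 62.8 CPM under norUDCA (log2 fold change -0.37 ± 0.14, SE; adjusted p = 0.0901). In both genes norUDCA 10, 13 and 20 were below all chow libraries, as was norUDCA 9 for Col4a1 and norUDCA 12 for Col4a2, and the high norUDCA library was norUDCA 12 for Col4a1 and norUDCA 11 for Col4a2. Without norUDCA 12 Col4a1 passed (log2 fold change -0.45, adjusted p = 0.0330). Without norUDCA 11 Col4a2 passed (log2 fold change -0.49, adjusted p = 0.0157). For each gene this was 1 of 12 fits that left out a library, and 0 of 9 other settings called it. The library left out was in each case the gene's highest under norUDCA. Leaving it out was therefore bound to lower the log2 fold change, and these passes do not show that the genes fell.

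Among the remaining basement membrane genes, Lamb1, the laminin beta 1 chain that pairs with the Lamc1 product, had 4.42, 5.81 and 7.24 CPM in chow and 5.69, 7.59 and 10.5 CPM under norUDCA (log2 fold change 0.46 ± 0.18, SE; edgeR adjusted p = 0.108). Nidogen 1, Nid1, which links laminin to type IV collagen, had a log2 fold change of 0.13 (95% interval -0.21 to 0.46). Col18a1 was the steadiest member, with a coefficient of variation of 3.74% in chow and 5.66% under norUDCA. Its log2 fold change was -0.08, with a 95% interval of -0.22 to 0.06.

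The microfibrillar collagen VI genes lie close together on chromosome 10, Col6a2 at chr10:76595762-76623630 and Col6a1 at chr10:76708792-76726168. Their log2 fold changes were 0.22 for Col6a2 (edgeR adjusted p = 0.675) and 0.21 for Col6a1 (adjusted p = 0.604). Both had their highest chow value in chow 17 and their lowest in chow 3. Col14a1, a collagen that attaches to the surface of fibrils, had 19.9, 29.2 and 43.0 CPM in chow and 27.7, 39.3 and 50.3 CPM under norUDCA (log2 fold change 0.44 ± 0.17, SE; adjusted p = 0.101). Only chow 17 and norUDCA 10 broke the separation of its groups.

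The small leucine-rich proteoglycans bind collagen fibrils and TGF-beta. Dcn had 44.0, 55.6 and 85.8 CPM in chow and 68.6, 76.4 and 96.9 CPM under norUDCA (log2 fold change 0.38 ± 0.14, SE; edgeR adjusted p = 0.0749). All norUDCA libraries were above the chow libraries other than chow 17. Biglycan, Bgn, had 38.96, 43.5 and 57.6 CPM in chow and 44.5, 52.9 and 64.8 CPM under norUDCA (log2 fold change 0.24, adjusted p = 0.148). Lumican, Lum, which neighbours Dcn on chromosome 10 (chr10:97565501-97572703 beside chr10:97479500-97518162), was low and more variable, with 2.21, 2.90 and 7.24 CPM against 3.66, 4.59 and 5.37 CPM (log2 fold change 0.28, adjusted p = 0.535). Sparc, a collagen-binding glycoprotein, had 26.9, 34.8 and 53.7 CPM in chow and 35.0, 42.7 and 70.7 CPM under norUDCA (log2 fold change 0.40, adjusted p = 0.164), with its 2 highest values in norUDCA 11 and norUDCA 12.

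Of the 4 contractile and filament genes 0 were called, by edgeR, DESeq2 or limma-voom, and 0 had an unadjusted p under 0.05. With 15.3% of all tested genes called by edgeR, 0 of 4 says little about this group. Acta2, smooth muscle alpha actin, the usual mark of activated stellate cells and of vessel wall muscle, had 2.21, 2.68 and 16.7 CPM in chow and 2.11, 4.32 and 9.50 CPM under norUDCA. Its log2 fold change was 0.11, with a 95% interval from -1.03 to 1.25, so that the spread between libraries left its change poorly determined. The high libraries were chow 17 in chow and norUDCA 11 and norUDCA 12 under norUDCA, the latter at 9.50 CPM and 9.49 CPM. Tagln, transgelin, an actin-binding protein of smooth muscle, had 9.80, 15.7 and 32.5 CPM against 12.8, 18.9 and 24.1 CPM (log2 fold change 0.11, edgeR adjusted p = 0.794). Exons of Tagln share 108 bases with the opposite-strand gene Pcsk7, which had 4888 counts in all libraries beside 2995 for Tagln. They share 1241 bases with opposite-strand Gm48529, which the deposited table does not hold. The strand setting of the counting is not given. Desmin, Des, the intermediate filament of muscle and rodent stellate cells, had 1.87, 3.06 and 8.96 CPM against 2.16, 3.15 and 4.88 CPM (log2 fold change -0.135, adjusted p = 0.840). Vimentin, Vim, the intermediate filament of mesenchymal cells, had a log2 fold change of 0.20 (adjusted p = 0.560).

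Of the other stellate cell markers in the set, Rgs5, a regulator of G protein signalling found in pericytes, had 14.5, 19.8 and 24.0 CPM in chow and 18.3, 25.5 and 27.7 CPM under norUDCA (log2 fold change 0.29, edgeR adjusted p = 0.163). Lrat, which esterifies retinol for storage and is the most specific retinoid marker of stellate cells in liver, had 2.92, 7.40 and 9.92 CPM against 5.82, 8.48 and 9.31 CPM (log2 fold change 0.25, adjusted p = 0.497). The PDGF receptor beta, Pdgfrb, had 2.39, 3.43 and 6.31 CPM against 3.14, 4.51 and 5.84 CPM (log2 fold change 0.23, adjusted p = 0.588). The 5 markers Lrat, Reln, Colec11, Rgs5 and Pdgfrb all had log2 fold changes above 0, with a median of 0.29, and 2 were called. Their summed level was 63.5 to 82.9 CPM in chow and 77.5 to 115 CPM under norUDCA, and without chow 17 the chow sums stayed at or under 72.8 CPM. Des, given above with the filament proteins, is a stellate cell marker too. It went the other way (log2 fold change -0.135, not called) and is not counted in this median or sum.

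Of the 3 TGF-beta ligands 0 were called by any of the 3 tools, and 0 had an unadjusted p under 0.05. Beside 15.3% of all tested genes called by edgeR, 0 of 3 says little about the ligands as a group. Tgfb1, the ligand most closely tied to liver fibrosis, had a log2 fold change of 0.01 with a 95% interval of -0.31 to 0.32. Tgfb2 had 0.737, 1.02 and 1.71 CPM in chow and 0.680, 0.969 and 1.95 CPM under norUDCA (log2 fold change -0.04, edgeR adjusted p = 0.955). Tgfb3 had 2.92, 5.33 and 8.61 CPM against 1.73, 4.61 and 6.61 CPM (log2 fold change -0.24, adjusted p = 0.646).

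The 4 tested proteases and inhibitors and the 2 tested lysyl oxidases likewise held 0 calls by the 3 tools and 0 unadjusted p-values under 0.05. These groups are too small for that to say much, with 15.3% of all tested genes called by edgeR. Mmp2, gelatinase A, had a log2 fold change of 0.32 (95% interval -0.38 to 1.03), and Mmp14, the membrane-anchored protease that activates it, had 0.01 (95% interval -0.34 to 0.35). The inhibitor Timp2, which also takes part in that activation, had a log2 fold change of 0.01 (95% interval -0.42 to 0.43). For Timp3, an inhibitor that binds to the matrix, it was 0.27 (edgeR adjusted p = 0.334). Exons of Timp3 share 1733 bases with the opposite-strand gene Syn3, which had 190 counts in all libraries beside 2391 for Timp3, and the strand setting of the counting is not given. Timp1, an inhibitor that is induced in injured liver, was under the filter, with 2 to 10 counts in the chow libraries and 4 to 15 counts under norUDCA. Lox, lysyl oxidase, was also under it, with 2 to 16 counts and 6 to 22 counts. With no filter, their edgeR adjusted p-values were 0.837 for Timp1 and 0.696 for Lox. The related Loxl1 and Loxl2 had log2 fold changes of 0.25 (95% interval -0.54 to 1.04) and -0.04 (95% interval -0.65 to 0.56).

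Among the members that were not called, the precision varied. For 6 of them, Col18a1, Nid1, Bgn, Tgfb1, Mmp14 and Timp2, the whole 95% interval was within 0.5 of 0 on the log2 scale. For Acta2, Mmp2 and Loxl1 it reached past 1.

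**Figure D4:**
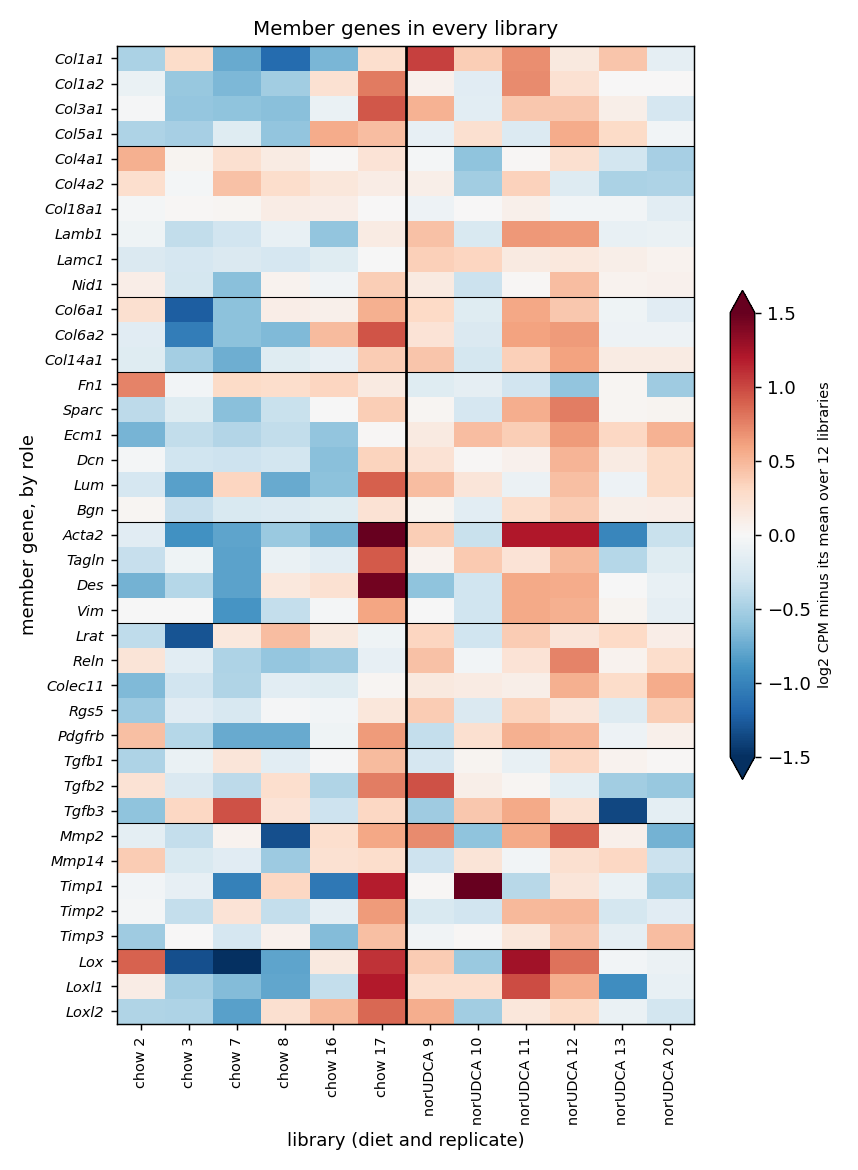
Log2 CPM of the 39 members in each library minus the gene's mean over the 12 libraries, with genes in rows by role and libraries in columns, chow left of the black line, and colours capped at 1.5 in either direction. The chow 17 column is red for most genes, as are norUDCA 11 and norUDCA 12, and the other chow columns are mostly blue.

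The libraries of a diet differed from each other across many members at the same time. Chow 17 was the highest of all 12 libraries for 13 members. Its median deviation from the gene means over the tested members was 0.38 on the log2 scale, while the other chow libraries were between -0.36 and -0.07. Under norUDCA the median deviation ran from -0.16 in norUDCA 10 to 0.44 in norUDCA 12, with 0.34 in norUDCA 11. NorUDCA 10 was the lowest library of its diet for 18 members, and norUDCA 12 and norUDCA 11 were the highest for 14 and 13. The median coefficient of variation of the members was 33.0% in chow, 21.7% in chow without chow 17, and 22.8% under norUDCA. For Acta2 in chow it was 113% with chow 17 and 21.1% without it.

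Some genes of vessel wall muscle and of portal or capsular connective tissue were high in chow 17, and others in norUDCA 11 and norUDCA 12. Myh11, smooth muscle myosin heavy chain, had 14.6 CPM in chow 17 and 2.005 to 6.24 CPM in the other chow libraries, and it ran from 2.49 to 8.48 CPM under norUDCA with its highest value in norUDCA 11. The smooth muscle genes Cnn1 and Actg2 had 2.65 CPM and 2.96 CPM in chow 17, and at most 0.426 CPM and 0.752 CPM in the other chow libraries. Under norUDCA they stayed at or under 0.488 CPM and 0.706 CPM, and norUDCA 11 and norUDCA 12 did not stand apart for them. Dpt, dermatopontin, had 11.4 CPM in chow 17 and 2.51 to 3.49 CPM in the others, and 1.54 to 4.03 CPM under norUDCA. Mfap4, a microfibril-associated protein, had 16.95 CPM and 11.2 CPM in norUDCA 11 and norUDCA 12 and at most 1.88 CPM in the other norUDCA libraries, but 2.49 CPM in chow 17. The 11 portal fibroblast and mesothelial markers summed to 35.6 CPM in chow 17 beside 12.2 to 19.3 CPM in the other chow libraries, and to 39.9 CPM and 36.4 CPM in norUDCA 11 and norUDCA 12 beside 11.3 to 17.7 CPM in the others. Of these 11 markers 9 were tested and 0 were called by edgeR, DESeq2 or limma-voom, with 2 at an unadjusted p under 0.05 (Mfap4 and Thy1). The whole list of 6 smooth muscle markers, mostly made up by Mylk with 92.5 CPM in chow 17, summed to 121 CPM in chow 17 and 111 to 147 CPM in the other chow libraries, and to 120 to 152 CPM under norUDCA with the highest sum in norUDCA 10. Of the 3 tested 0 were called by these tools or had an unadjusted p under 0.05. Both lists are short for such counts, with 15.3% of all tested genes called by edgeR. How far such tissue makes up the levels of the members in these libraries was not tested.

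**Figure D5:**
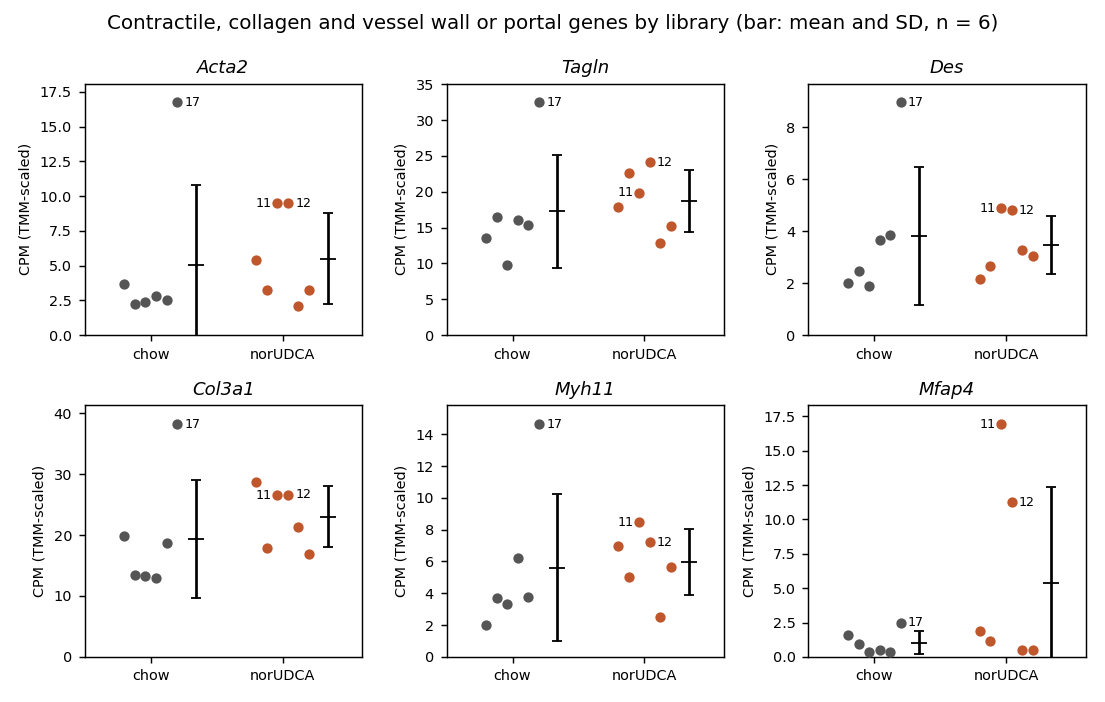
CPM in each library of the members Acta2, Tagln, Des and Col3a1 and of the smooth muscle gene Myh11 and the portal gene Mfap4, with the mean and SD of the 6 libraries as a bar beside each diet, cut off at 0. Chow 17 is the highest chow point in each panel. NorUDCA 11 and norUDCA 12, also numbered, are above the other norUDCA libraries for Acta2, Des, Myh11 and Mfap4, but not for Tagln and Col3a1.

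Without chow 17 the same fit called 10 of the 37 tested members, 9 higher and 1 lower. This was 27.0% of them, beside 13.6% of all tested genes in that fit. The share called higher was 24.3% beside 6.10% of all tested genes, and all tested genes were called lower at 7.52%. The 6 called before were all called again. Added to them were Dcn (log2 fold change 0.51, edgeR adjusted p = 0.00826), Col14a1 (0.58, adjusted p = 0.0194), Col3a1 (0.56, adjusted p = 0.0408) and Bgn (0.31, adjusted p = 0.0496). The log2 fold change of Acta2 became 1.01 (adjusted p = 0.0885), and the median of the members became 0.40. Chow 17 was set apart because it was the highest chow library for 29 of the 39 members. Leaving it out was therefore bound to raise most of their log2 fold changes, and the added calls do not show that more members rose. NorUDCA 11 and norUDCA 12 had median deviations of 0.34 and 0.44, beside 0.38 in chow 17. A fit that leaves out both of them is not given here.

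The choice of scaling also set how many members passed. With total counts in place of TMM the median of all tested genes moved from -0.0014 to 0.15 on the log2 scale, and 12 members were called, 11 higher and 1 lower. That was 32.4% of the tested members beside 24.2% of all tested genes, and 29.7% were higher beside 19.7%. Of all tested genes 4.56% were called lower in that fit. The 6 genes added were Lamb1, Col14a1, Sparc, Dcn, Bgn and Rgs5. Over all genes, the total-count fit called 2434 higher and 565 lower, where the TMM fit called 833 and 1067. Ecm1, Colec11, Lamc1 and Fn1 were called in all 9 other settings and in each of the 12 fits that left out a library.

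Genes that work with the members were read from lists drawn up with earlier results known, so their counts are descriptions. For reading them, 15.3% of all tested genes were called, 6.73% higher and 8.62% lower. Of 34 other collagen genes 14 were tested and 3 were called, each lower, with a median log2 fold change of -0.00083. They were Col15a1, a collagen next to basement membranes (log2 fold change -0.98, edgeR adjusted p = 0.00118), the fibril-associated Col12a1 (-1.22, adjusted p = 0.00580) and the fibrillar Col5a3 (-0.44, adjusted p = 0.0497). All norUDCA libraries were below the chow libraries for Col15a1, at means of 14.7 ± 3.77 CPM in chow and 7.44 ± 0.847 CPM under norUDCA (SD, n = 6). Col19a1 had 0 counts in every library.

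Of 39 further matrix glycoproteins and proteoglycans 34 were tested, 2 were higher and 3 lower. Periostin, Postn, a matricellular protein of fibroblasts, rose from 5.32 ± 2.71 CPM to 10.3 ± 1.93 CPM (SD, n = 6; log2 fold change 0.95, edgeR adjusted p = 0.0210). The 3 genes that fell were the laminin alpha 3 chain Lama3 (log2 fold change -0.95, adjusted p = 0.00953), the hepatocyte plasma protein vitronectin, Vtn (-0.53, adjusted p = 0.0104), and the heparan sulfate proteoglycan agrin, Agrn (-0.31, adjusted p = 0.0214). Sparcl1, a relative of Sparc, was also higher, with 1.39 (adjusted p = 0.0412). Its values were 15.5 CPM and 11.6 CPM in norUDCA 11 and norUDCA 12 and at most 4.14 CPM in the other norUDCA libraries.

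Collagen biosynthesis and cross-linking genes included more that fell than rose, with 6 lower and 1 higher of 21 tested among 25. The 4 smallest p-values were those of the cross-linking transglutaminase Tgm2 (log2 fold change -0.97, edgeR adjusted p = 0.00431), the lysyl oxidase relative Loxl4 (-1.32, adjusted p = 0.00467), the collagen galactosyltransferase Colgalt2 (0.81, adjusted p = 0.0102) and the prolyl hydroxylase subunit P4ha2 (-0.70, adjusted p = 0.0126). Bmp1, P4hb and Ppib, which fell by 0.29, 0.28 and 0.30 on the log2 scale, also act on proteins other than collagen. Of 35 other proteases and inhibitors 17 were tested, and Mmp19 was higher (log2 fold change 0.35, adjusted p = 0.0173) and the protease inhibitor Serpine2 lower (-0.69, adjusted p = 0.0280). Mmp1a, Mmp1b and Mmp20 had 0 counts in every library. Of 33 genes of TGF-beta and PDGF signalling 31 were tested, with a median of 0.02. The TGF-beta-induced matrix protein Tgfbi was higher (0.47, adjusted p = 0.0174), and Skil (-0.73, adjusted p = 0.0170) and Tgif1 (-0.46, adjusted p = 0.0493), both repressors in the pathway, were lower.

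A further 16 stellate cell markers that are not members were read in the same way, of which 15 were tested, 5 were higher and 1 lower, with a median log2 fold change of 0.30. Colec10, the lectin that pairs with Colec11, had 11.6 ± 1.67 CPM in chow and 16.9 ± 1.65 CPM under norUDCA (SD, n = 6; log2 fold change 0.55, edgeR adjusted p = 0.00352), with no overlap between the diets. The extracellular superoxide dismutase Sod3 (0.47, adjusted p = 0.00511) and Gdf2, also called BMP9 (0.55, adjusted p = 0.00732), rose. So did Angptl6 (0.64, adjusted p = 0.0161) and the transcription factor Hand2 (0.98, adjusted p = 0.0380). Steap4, which hepatocytes also express, made up most of the summed level of these markers, at 211 to 2164 CPM in chow and 95.2 to 731 CPM under norUDCA (adjusted p = 0.0591). Without Steap4 the sum was 70.7 to 95.8 CPM in chow and 81.0 to 109 CPM under norUDCA.

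Markers of other liver cells were read beside these, with no test between the lists. The share of all tested genes called by edgeR was 15.3%. The 14 endothelial markers had 0 called genes by edgeR, DESeq2 or limma-voom, 1 with an unadjusted p under 0.05 (Lyve1) and a median log2 fold change of -0.08, with sums of 198 to 353 CPM in chow and 214 to 331 CPM under norUDCA. Of the 11 Kupffer cell and macrophage markers 7 were called, each lower, with a median of -0.70, the smallest p-values being those of Vsig4, Emr1, Clec4f and Cd5l. Their sums were 192 to 467 CPM in chow and 114 to 275 CPM under norUDCA. Of the cholangiocyte markers 7 of 8 were tested, Sox9 and Spp1 were lower, and 4 had log2 fold changes above 0, with a median of 0.16. Their sums, mostly Spp1, were 35.0 to 104 CPM and 34.8 to 46.0 CPM. Of the lymphocyte and neutrophil markers 3 of 7 were tested and S100a8 and S100a9 were lower by edgeR and DESeq2, while limma-voom called 0 of the list, at sums of 4.59 to 20.8 CPM and 5.22 to 9.78 CPM. Among the 7 hepatocyte markers the called genes were Apoa1, Tat and Hnf4a, each lower, and the median was -0.23. Asgr1 (log2 fold change 0.19, adjusted p = 0.118) and Alb (0.14, adjusted p = 0.512) were on the other side of 0. The part of these other cells in the levels of the members was not tested.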

How the data were processed

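Total RNA was extracted from frozen liver with TRIzol and made into libraries by the NEBNext method, per the labels. The values used are raw read counts per gene as the authors deposited them, in 1 table of 35275 genes and 12 libraries with gene positions and lengths. The submitters' processing notes name CASAVA, STAR and DESeq2. The sources used here do not give versions, genome build, counting tool or strand setting, and 25 of the 39 member positions equal those of GENCODE M21 on GRCm38. There, 27 gene symbols stood as dates and were restored from the gene identifiers, and older symbols of listed genes (Emr1 for Adgre1) were matched by identifier. The authors' comparison tables hold fold changes and p-values and were not used.

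Counts were tested with edgeR 4.0.16 in R 4.3.3 (TMM, filterByExpr with a minimum count of 10, glmQLFit, glmQLFTest), norUDCA against chow with no covariate, and p-values were adjusted over all 12378 genes tested. The script was tested on simulated counts. Alternatives used DESeq2 1.42.0, limma 3.58.1 and sva 3.50.0. Within each diet no libraries were duplicates. The chi-square per degree of freedom was at least 13.7 in all 30 pairs of libraries of a diet (genes with 20 counts or more in the pair). Pairs across the diets were not checked. The members and gene lists were chosen with earlier results of these data known. All members are reported. From each other list the called genes were named, or the 4 with the smallest p where more than 4 were called, and genes at 0 in every library. Of the genes this rule takes, 1 is not reported here. Further genes (the other called genes of short lists, Steap4, Myh11, Cnn1, Actg2, Mylk, Dpt, Mfap4, Thy1, Lyve1, Asgr1 and Alb) were chosen after their values were seen. RefSeq promoter windows matched 26 of 39 members.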

Additional observations from a re-analysis of the deposited data

Results flagged for a closer look

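Each member was checked in each diet for a library at the edge of its group, by the gap to the nearest other library as a share of the group's range (above 0.625 for 6 libraries). This held in 8 of 78 pairs of member and diet, and chance alone gives it in about 1 of 20 groups. In 6 of the 8 the library was chow 17. It had 38.2 CPM of Col3a1, where the next chow library had 19.8 CPM, 16.7 CPM of Acta2, where the next had 3.68 CPM, and 32.5 CPM of Tagln, where the next had 16.4 CPM. For Des it had 8.96 CPM and the next 3.85 CPM, for Loxl1 3.35 CPM and 1.59 CPM, and for Lamc1 14.95 CPM and 13.3 CPM. Under norUDCA, norUDCA 9 had 1.95 CPM of Tgfb2 and the next library 1.07 CPM, and norUDCA 10 had 1.003 CPM of Timp1, from 15 counts, and the next 0.390 CPM. The members are not independent of each other, so the 6 flags of chow 17 are 1 library seen in several genes.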

How the results depend on the processing

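No paired analysis was possible because the diets share no replicate number. Counts of called members stayed within 1.5 times under the RLE and upper-quartile scalings, TMM without the 50 most abundant genes, no low-count filter, DESeq2, limma-voom, thinning to equal depth and 1 surrogate variable, and DESeq2 added Dcn (adjusted p = 0.0456). Total-count scaling moved the called members from 6 to 12 (higher, 5 to 11) and the called genes from 1900 to 2999 (higher, 833 to 2434, and lower, 1067 to 565). Leaving out each library in turn gave 4 to 10 called members, 3 to 9 higher and 1 to 2 lower, and 1405 to 1982 called genes, 622 to 899 higher and 773 to 1083 lower. The 3 higher members came without chow 7 or chow 8, the 9 without chow 17, and the 2 lower without norUDCA 11 or norUDCA 12. The cause was not tested. Of 777 member values in these alternatives 42 changed sign, 0 of them in the 6 called members. Low counts limit Timp1, Lox and Tgfb2, and the spread between libraries limits Acta2 and Des.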
